A study of Mus musculus with 6 samples.

Results

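The genes described are Fap, its relative Dpp4, and the matrix metalloproteases (MMPs), ADAM and ADAMTS proteases and protease inhibitors listed with them, 40 genes of 28034 named on the array. They were chosen by name, and every probe carrying a member's name was taken, which gave 68 probes. The tissue was anterior presomitic mesoderm and somites I to IV from mouse embryos at embryonic day 9.5. One genotype was wild type (WT) and the other was Paraxis-/-, a mutant of Tcf15, whose product Paraxis is a transcription factor of the paraxial mesoderm, and the labels give C57BL/6J as the strain of both. No other allele or agent is named, and how the Paraxis allele was made is not given in the sources used here. Each RNA pool combined the tissue of 5 embryos, so embryos within a pool cannot be told apart. For each genotype 3 pools were made, and they were compared in 3 pairs on 6 two-colour Agilent arrays, each pair being hybridised in both dye orientations. The pairs are called A, B and C after their WT pool. Pair B used the Paraxis-/- pool labelled C, and pair C the one labelled B.

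Proteolysis at the cell surface and in the matrix around it is carried out by several families. MMPs cut collagens, laminins and other matrix proteins, and are either secreted or held at the membrane. ADAMs are membrane proteins, many of which shed the outer part of other membrane proteins, while some have lost the catalytic residues and act in adhesion. ADAMTS enzymes are secreted and cut proteoglycans or trim procollagen. TIMPs bind and block the active site of these zinc enzymes, and Reck is a membrane-anchored inhibitor. Fap (fibroblast activation protein) and Dpp4 are serine peptidases of the cell surface that cut after proline. In the early embryo somites form from mesenchyme that becomes epithelial and surrounds itself with a basement membrane, a substrate of many of these enzymes.

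Between 27080 and 31795 of 43379 gene spots per channel were well above background, and 19349 genes were tested. Ratios are given as log2 values of Paraxis-/- over WT, with n = 3 pairs. Tcf15 served as the check of the labels: it fell from 15.17 ± 0.11 in WT to 9.76 ± 0.05 in Paraxis-/- (SD, n = 3 pools), a log2 ratio of -5.41 (SE 0.09, adjusted p = 0.000538, limma). Of 14 paraxial mesoderm markers 13 were measured, and their summed signal had log2 ratios of -0.53, -1.09 and -0.75 in pairs A, B and C. Without Tcf15 itself, which was among the brightest, the other 12 had 0.09, -0.41 and -0.03, with 8 means below 0 and 4 above. Primitive blood markers had summed ratios of 0.29, 1.36 and 0.02. Pair A stood apart in other lists: the summed signal of 3 measured decidua and placenta markers of 8 had ratios of 3.44, 0.05 and 0.32 in the same order of pairs, with Cts7, Ctsj and Ctsq not well above background in any measurement. In pair A, Prl3d1 had 3.61 and Prl8a2 5.11, while Prl3b1, the remaining measured placenta marker, went the other way with -0.60. The 6 measured gut endoderm markers of 7 had 1.71, -0.22 and -0.30, with Ttr not well above background anywhere, and 8 of 9 surface ectoderm markers had 0.93, 0.05 and 0.12. Cdx2 had the largest ratio of the gut markers in pair A, 3.11, against 0.12 to 0.78 for the others. Tbx6, of the paraxial mesoderm list, had 2.43 in pair A. Pair A was also the only pair on slide 1, and pairs B and C shared slide 2. In pooled tissue, fewer cells of a type and less RNA per cell cannot be told apart.

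Each genotype was measured 6 times, as 3 pools in 2 dyes. Of the 40 members 32 had a probe that stood well above background 4 or more times in 1 genotype and were tested, and 30 of these were well above background in all 6 measurements of both genotypes. The exceptions were Fap, with 6 of 6 in WT and 2 of 6 in Paraxis-/-, and Adam12, with 3 of 6 and 5 of 6. The 8 members that did not pass were mostly secreted MMPs: the stromelysins Mmp3 and Mmp10, the matrilysin Mmp7, the collagenases Mmp8 and Mmp13, the macrophage elastase Mmp12, and Mmp19, together with the catalytically inactive Adam22. Mmp8, Mmp10, Mmp12, Mmp13 and Adam22 were well above background in 0 of 12 measurements. Mmp3 was so in 1 measurement of each genotype, Mmp7 in 2 and Mmp19 in 1 of Paraxis-/- only. Of 9 secreted MMPs, Mmp2 and Mmp11 were the ones measured in these pools.

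Fap had the largest difference of the members. Its probe is shown because the main result rests on it; it lies on the minus strand at chr2:62340501-62340560 (mm9), and which part of the transcript it covers is not annotated here.
Fap A_51_P394210: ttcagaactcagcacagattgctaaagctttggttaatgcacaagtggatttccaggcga
The log2 signal of this probe in WT was 9.22 in pool A, 8.23 in pool B and 7.92 in pool C. In Paraxis-/- it was 6.48, 6.51 and 6.62 in the same pairs, so the lowest WT pool lay above the highest Paraxis-/- pool. The WT pools differed among themselves with an SD of 0.68, against 0.07 in Paraxis-/-, where the probe was well above background on 1 array of pair B and 1 array of pair C. Signal near background varies little: Mmp12, not well above background in any measurement, had SDs of 0.05 in WT and 0.08 in Paraxis-/-. The small SD of Fap in Paraxis-/- therefore does not show even expression.

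The pair ratios of Fap were -2.74, -1.72 and -1.30. Both dye orientations gave them closely, at -2.61 and -2.87 in pair A, -1.70 and -1.75 in pair B, and -1.30 on both arrays of pair C. The mean was -1.92 (SE 0.28, 95% interval -2.65 to -1.20), a 3.79-fold lower signal in Paraxis-/-, with an unadjusted p of 0.00111 and an adjusted p of 0.43 (limma). The size is uncertain, because 4 of the 6 Paraxis-/- measurements were not well above background and the probe was kept through WT. Fap did not pass the adjusted threshold of 0.05, which was passed by 4 genes (0.0207%), with 0.0103% of all genes lower and 0.0103% higher. Values on the log2 scale after background correction with an offset understate a ratio against a dim probe: with an offset of 10 the mean was -2.59, and from the scanner's own processed signals it was -4.02 (adjusted p = 0.129, limma). Slide 1 alone gave -2.74 and slide 2 alone -1.51. Fap passed where the 6 arrays were fitted singly with the pair as a block (adjusted p = 0.00792, limma), as did 0.341% of all genes. That fit also takes the dye-swapped arrays of a pair as separate measurements, with 1 correlation within pairs for all genes. For Fap its SE was 0.215, against 0.214 with no block, so the block hardly changed the error. Fap also passed with no block (0.47% of all genes), a fit that counts both dye-swapped arrays of a pair as separate samples. With the slide as a fixed block it passed too (ratio -2.13, adjusted p = 0.0199, limma, 0.394% of all genes). That ratio gives both slides equal weight, so pair A weighs as much as pairs B and C together. The distance of pair A from the others is not in its error, where pairs B and C alone give the spread of the gene. The summed paraxial mesoderm markers other than Tcf15 had 0.09, -0.41 and -0.03 in pairs A, B and C, but single markers differed widely. Of these 12, 8 had means below 0, with Pax1 at -4.35 and Meox2 at -1.60, and 4 had means above 0, with Tbx6 at 0.69. Their part in the Fap ratio was not tested.

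A second Fap probe, at chr2:62373862-62373921 on the minus strand (mm9), was well above background in 6 of 6 WT measurements and 0 of 6 in Paraxis-/-. Its WT levels were 7.44, 7.002 and 6.82, and its Paraxis-/- levels 6.25, 6.30 and 6.27, so these groups did not overlap either. For a probe that is not well above background in a genotype only a bound can be given, taken per array as the higher of its own signal and the lowest signal among probes well above background. Its own signal was the higher of these (mean 6.27), so the bound is the same as its mean ratio, a 1.76-fold lower signal in Paraxis-/-. The pair ratios were -1.19, -0.70 and -0.55. Both probes ordered the pairs alike, with the largest ratio in pair A and the smallest in pair C. Paraxis-/- signal was near background on both, so this is the order of the WT pools, which the probes share. The second probe was kept through WT alone, so its pair order and its lack of overlap give no separate support.

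**Figure D1:**
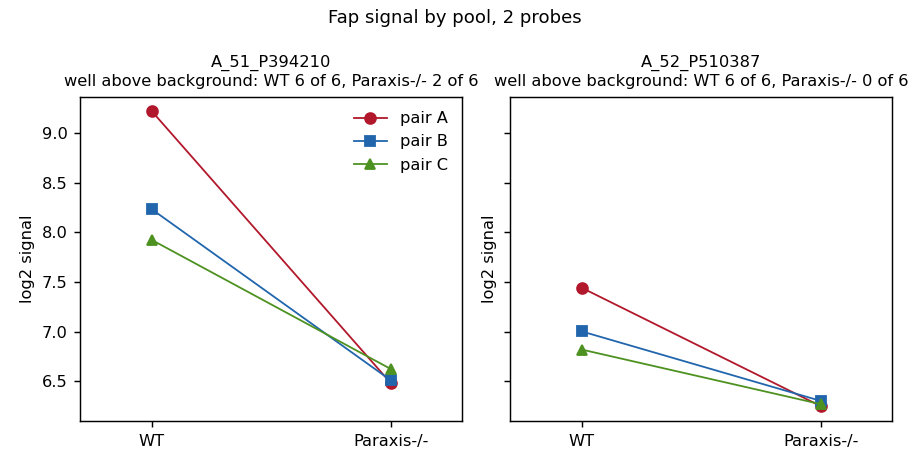
Log2 signal (vertical axis) of the 2 Fap probes in WT and Paraxis-/- pools (horizontal axis), with a line joining the pools of each pair. All 3 lines run downward for both probes, and the Paraxis-/- pools lie together, between 6.48 and 6.62 for the first probe and between 6.25 and 6.30 for the second. Most of these Paraxis-/- measurements were not well above background.

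Dpp4, the closest relative of Fap in the list, lies near it on chromosome 2 and did not have the low ratio of Fap. Its log2 signal was 7.04, 7.66 and 7.67 in WT and 7.68, 7.61 and 7.86 in Paraxis-/-, and the groups overlapped. The pair ratios were 0.64, -0.05 and 0.18, with a mean of 0.26 (SE 0.14, adjusted p = 0.95, limma) and 0.07 without pair A. A second probe gave 0.59, 0.11 and 0.18, and the remaining probe was not well above background in any measurement. The WT pool of pair A was the low one. In that pool the gut endoderm marker Cdx2 was also lowest of the WT pools, below the 12.87 and 12.72 of pairs B and C, and its part in the Dpp4 ratio was not tested. Of 8 other prolyl peptidases, among them the intracellular and membrane relatives of Fap, all were tested and none had an unadjusted p under 0.05 (limma), with a median ratio of 0.04 and a range of -0.02 to 0.07.

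Among the membrane-anchored MMPs, Mmp17 was the member with higher signal in every Paraxis-/- pool. Mmp17 encodes a protease tethered to the membrane by a lipid anchor. Its log2 signal was 10.30, 10.10 and 10.11 in WT and 10.75, 10.52 and 10.44 in Paraxis-/-, and the groups did not overlap. The pair ratios of 0.45, 0.42 and 0.33 gave a mean of 0.40 (SE 0.07, 95% interval 0.22 to 0.57), 1.32-fold higher in Paraxis-/-, with an unadjusted p of 0.00228 and an adjusted p of 0.553 (limma). With the 6 arrays fitted singly it passed with the pair as a block (adjusted p = 0.0463, limma) and with no block (adjusted p = 0.0243, limma). In both of these fits the dye-swapped arrays of the same pools enter as separate measurements. Mmp17 did not pass with the slide as a block (adjusted p = 0.19, limma). Its second probe had ratios of 0.34, 0.12 and 0.02, with a mean of 0.16, so the size of the difference was not the same on both.

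The other membrane-anchored MMPs had mean ratios between -0.09 and 0.08 and overlapping pools. Mmp14, the chief membrane-bound collagenase and the activator of Mmp2, is a case in which probes of a gene had opposite signs. The probe with the highest signal had levels of 12.77, 13.65 and 13.79 in WT and 13.06, 13.75 and 13.66 in Paraxis-/-, and its pair ratios were 0.28, 0.10 and -0.13. The second probe, shown because it gave the other sign, had ratios of -0.21, -0.20 and -0.14, with a mean of -0.19, and lies at chr14:55058775-55058834 on the plus strand (mm9).
Mmp14 A_52_P304128: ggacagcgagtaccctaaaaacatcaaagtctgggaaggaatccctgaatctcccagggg
No direction is therefore given for Mmp14. The gelatinase Mmp2 had ratios of -0.22, -0.21 and -0.03, with a mean of -0.15 (SE 0.08, adjusted p = 0.95, limma). Its sign followed the dye in every pair, with means of -0.49 with Paraxis-/- in Cy5 and 0.19 with WT in Cy5. Mmp11, which is secreted in active form, had 0.02, 0.12 and -0.01, and the pools of both genotypes overlapped for Mmp2 and for Mmp11.

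Of 7 catalytic ADAMs all were tested, and Adam9 had the highest mean ratio. Its log2 signal was 11.02, 11.01 and 11.09 in WT and 11.27, 11.10 and 11.33 in Paraxis-/-, and the groups did not overlap, though the gap between the highest WT pool and the lowest Paraxis-/- pool was small. The pair ratios of 0.25, 0.09 and 0.24 had a mean of 0.20 (SE 0.07, unadjusted p = 0.0438, adjusted p = 0.95, limma). The unadjusted p stayed under 0.05 in 8 of 16 alternative analyses. Adam10 and Adam17 are the main sheddases of Notch receptors and of growth factor precursors. Adam10 had ratios of 0.16, -0.04 and -0.01. Adam17 had -0.36, -0.11 and -0.05, with a mean of -0.17 (SE 0.09, adjusted p = 0.95, limma) and -0.15 by its second probe. For both sheddases the pools of the genotypes overlapped. Adam8, Adam12, Adam15 and Adam19 had mean ratios between -0.06 and 0.04, and each of these 4 had pairs of both signs. Of the ADAMs without catalytic activity, which act in adhesion and synapse organisation, Adam11 had a mean ratio of 0.00 (SE 0.10). Adam23 had 0.57, -0.17 and 0.19, the highest value coming from pair A.

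Membrane proteins that Adam10 or Adam17 cut were examined beside them. Of 24 listed 22 were tested, and their median ratio was 0.00. None passed the adjusted threshold and 1 had an unadjusted p under 0.05 (limma), against 5.06% of all genes. It was Kdr, a receptor of vascular endothelial growth factor, with 0.44 (SE 0.15). Kdr is also an endothelial marker and is itself part of the summed signal of 9 endothelial markers, which had ratios of -0.06, 0.39 and 0.18. Of these 9 markers 4 had means above 0 and 5 below, with a median of -0.07. Their part in the Kdr ratio was not tested.

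**Figure D2:**
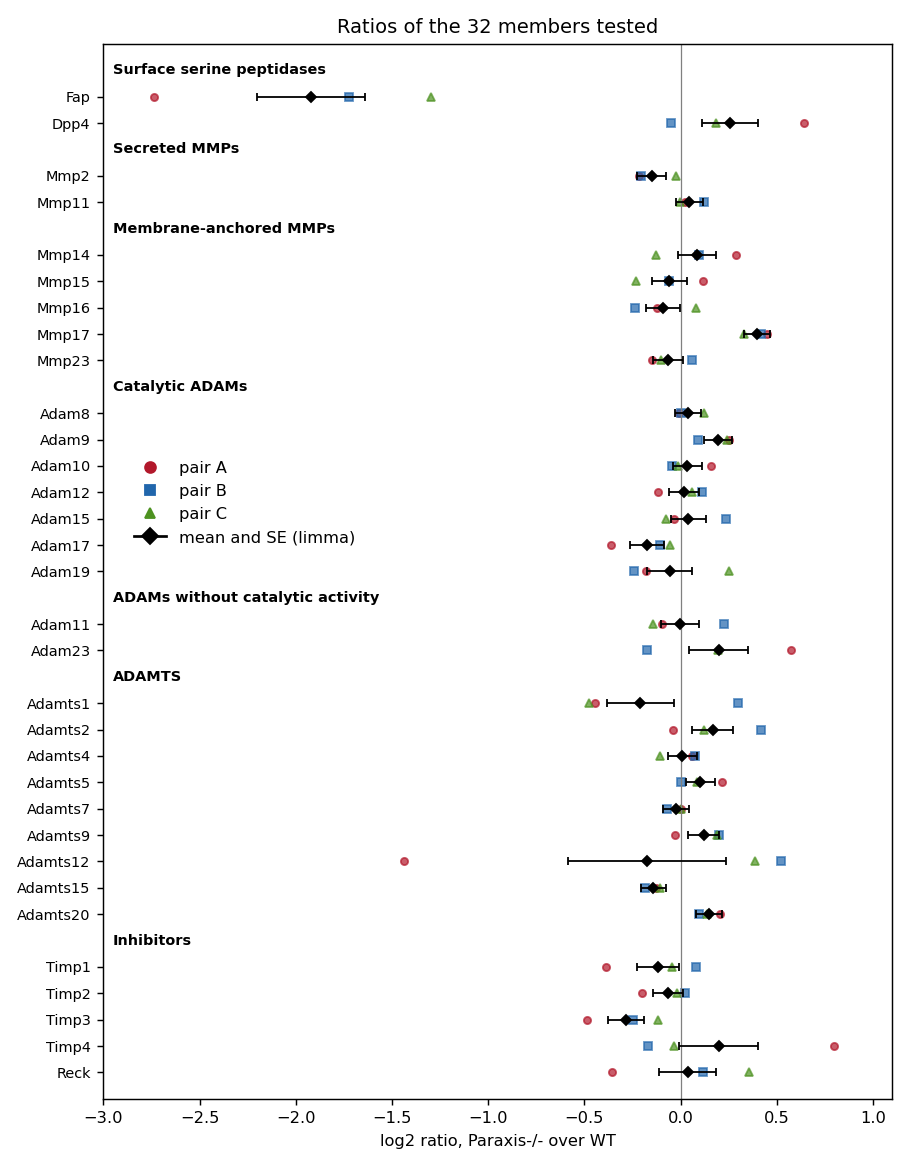
Log2 ratio of Paraxis-/- over WT (horizontal axis) for the 32 members tested (vertical axis, by class), with a coloured symbol per pair and a black diamond with a bar for the limma mean and its SE. Fap stands alone at -1.92, Mmp17 has 3 values around 0.40, and Adamts12 and Timp4 are split between pair A and the other pairs.

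The ADAMTS group had no member with an unadjusted p under 0.05 (limma) among its 9, and its mean ratios ran from -0.21 to 0.17. Adamts1, a proteoglycan-cutting enzyme and the lowest of the group, had log2 signal of 11.62, 11.85 and 11.77 in WT and 11.17, 12.15 and 11.29 in Paraxis-/-. Its ratios of -0.45, 0.30 and -0.48 thus differed in sign between pairs. A second probe of Adamts1 gave the same sign in all 3 pairs, with -0.51, -0.22 and -0.18 and a mean of -0.30. It is printed for this reason and lies at chr16:85796191-85796250 on the minus strand (mm9).
Adamts1 A_52_P213932: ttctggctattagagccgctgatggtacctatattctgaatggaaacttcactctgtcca
Adamts2, a procollagen N-proteinase, had the highest mean of the group, 0.17 (SE 0.11), with ratios of -0.04, 0.41 and 0.12 and further probes at 0.10 and 0.08. Adamts5 and Adamts20, which cut aggrecan and versican, had positive ratios in all pairs, with means of 0.10 and 0.15, and Adamts15 had negative ratios in all pairs, with a mean of -0.14 (SE 0.07). The pools of the genotypes overlapped for these 3 genes. Adamts4, Adamts7 and Adamts9 had means of 0.01, -0.02 and 0.12.

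Adamts12 was singled out after its values were seen. Its log2 signal was 9.35 in the WT pool of pair A, against 7.46 and 7.70 in the other WT pools, and 7.91, 7.98 and 8.08 in Paraxis-/-. The WT pool of pair A therefore stood far above all 5 others. The pair ratios were -1.44, 0.52 and 0.39. Their mean of -0.18 (SE 0.41) became 0.46 (SE 0.09, adjusted p = 0.545, limma) without pair A. Its further probes, which were well above background in 3 and 2 of 6 WT measurements, had ratios of -0.17 and -0.04 in pair A.

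Timp3, the inhibitor that binds to matrix, had the lowest ratio of the inhibitors. Its log2 signal was 10.87, 10.35 and 10.11 in WT and 10.38, 10.10 and 9.99 in Paraxis-/-; each Paraxis-/- pool was below the WT pool of its pair, but the groups overlapped. The ratios were -0.49, -0.25 and -0.12, with a mean of -0.28 (SE 0.09, unadjusted p = 0.0298, adjusted p = 0.934, limma). Without pair A the mean was -0.18 and the unadjusted p was 0.0982 (limma). The 2 dye orientations gave -0.23 and -0.34. For scale, 4.48% of all genes tested had a mean ratio of at least 0.3 in size.

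The soluble inhibitors Timp1 and Timp2 had pools of both genotypes that overlapped. Timp1 had log2 signal of 10.89, 10.76 and 10.71 in WT, and in Paraxis-/- it had 10.84 in pair B, 10.67 in pair C and the lowest level of all 6 pools in pair A. Its ratios of -0.39, 0.08 and -0.05 gave a mean of -0.12 (SE 0.11). Its second probe had a mean of -0.13. Timp2, which also takes part in the activation of Mmp2 by Mmp14, had 11.80, 11.51 and 11.49 in WT and 11.60, 11.53 and 11.47 in Paraxis-/-, with a mean ratio of -0.07 (SE 0.08). Pairs B and C were within 0.1 of 0 for both genes, so the lower means came from pair A. For Timp2 the arrays of pair A had opposite signs, -0.88 with WT in Cy5 and 0.48 with Paraxis-/- in Cy5.

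Timp4 and Reck had the widest spread of the inhibitors. Timp4 had log2 signal of 7.27, 7.98 and 8.01 in WT and 8.06, 7.81 and 7.97 in Paraxis-/-, where the WT pool of pair A was low. Its ratios were 0.80, -0.17 and -0.04, with a mean of 0.20 (SE 0.20) and -0.10 without pair A. Reck had 10.32, 10.39 and 10.35 in WT and 9.96, 10.51 and 10.71 in Paraxis-/-, and here the Paraxis-/- pools were the ones that differed, giving ratios of -0.36, 0.12 and 0.35 and a mean of 0.04 (SE 0.15). Adjusted p-values were 0.961 for Timp4 and 0.991 for Reck (limma). Both means were smaller than their SE, and the interval of Timp4 ran from -0.33 to 0.72.

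**Figure D3:**
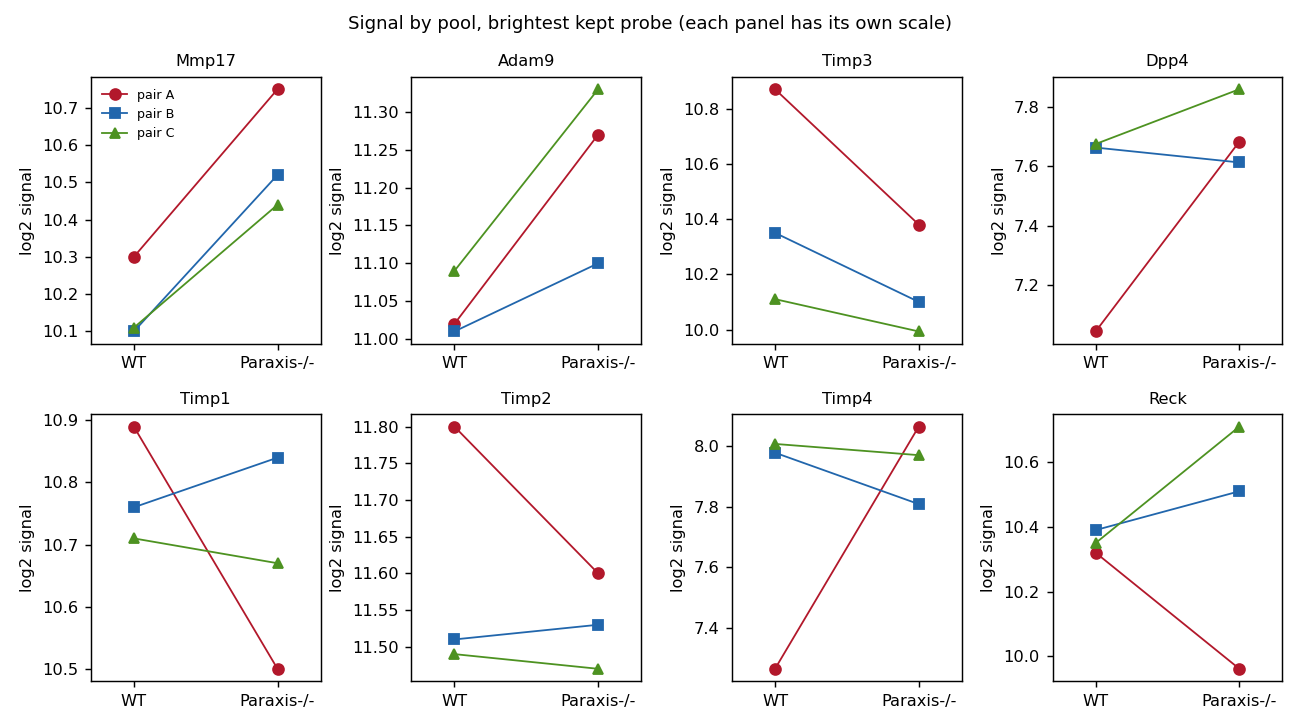
Log2 signal (vertical axis, a separate scale in each panel) of 8 members in the WT and Paraxis-/- pools (horizontal axis), with a line joining the pools of each pair. Mmp17 and Adam9 have 3 upward lines and Timp3 has 3 downward ones, while Dpp4, Timp1, Timp2, Timp4 and Reck have lines of both directions.

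Over the 32 members tested, none passed the adjusted threshold in limma, against 0.0207% of all genes. At an unadjusted p under 0.05 there were 4, Fap and Timp3 with lower and Mmp17 and Adam9 with higher signal, against 5.06% of all genes (2.73% lower and 2.34% higher). The pools of the genotypes did not overlap in 3 members, 1 lower (Fap) and 2 higher (Mmp17 and Adam9), against 5.96% of all genes (2.87% lower and 3.09% higher). All 3 pairs had the same sign in 9 members, 4 higher and 5 lower, against 25.7% of all genes. The median ratio was 0.01, close to the 0.00 of all genes, with 17 members above 0 and 15 below. The median size of the ratio was 0.11 in the members and 0.07 in all genes tested. An exact sign-flip test of 3 pairs cannot give a p below 0.25, so no single gene can be tested that way here.

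The intervals show what could be seen with 3 pairs. In 26 of 32 members the 95% interval lay within a 1.5-fold difference in either direction. The 6 wider ones were Fap, Dpp4, Adam23, Adamts1, Adamts12 and Timp4. Apart from Fap and Adamts12, the intervals of the members tested lay within 2-fold. Pair A was the pair farthest from the other pairs in 16 of 32 members, against 39.3% of all genes, and the median size of a member's ratio was 0.20 there and 0.12 in each of the other pairs. The summed placenta and gut marker ratios given above were high in the same pair, where the single placenta marker Prl3b1 was lower. The part of these markers in the member ratios was not tested.

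Probes of the same gene could be compared in 15 members with at least 2 measured probes, and in 10 of these all mean ratios had the same sign. The 5 genes without a common sign were Mmp14, Adam15, Adamts7, Adamts9 and Adamts12. Apart from Mmp14 and Adamts12, their mean ratios were between -0.08 and 0.12 on every probe.

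**Figure D4:**
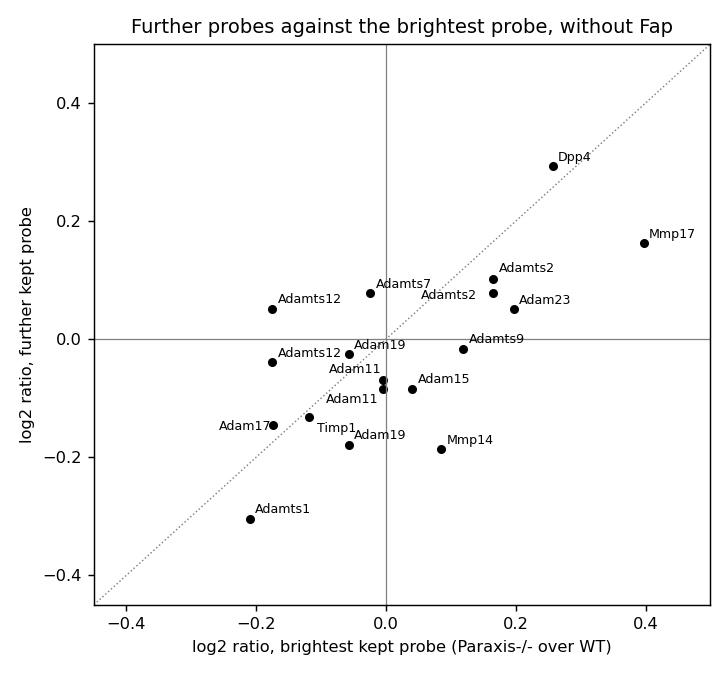
Mean log2 ratio of each further measured probe of a member (vertical axis) against that of its brightest measured probe (horizontal axis), without Fap, whose values are far outside the plotted range. The dotted line marks equal values; Mmp14, Adam15, Adamts7, Adamts9 and 1 probe of Adamts12 lie in the quadrants of opposite sign.

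Other metalloproteases of these families that are not members were listed for comparison. Of 36 such genes 20 were tested, with a median ratio of 0.02. None passed the adjusted threshold, and 1 was lower and 1 higher at an unadjusted p under 0.05 (limma), against 2.73% and 2.34% of all genes. The lower one was Adam18, an ADAM known from sperm. Its log2 signal was 7.74, 7.26 and 7.27 in WT and 6.42, 6.36 and 6.49 in Paraxis-/-. It was well above background in 6 of 6 WT and 0 of 6 Paraxis-/- measurements. The mean signal was 2-fold lower (unadjusted p = 0.000509, adjusted p = 0.32, limma), with pair ratios of -1.32, -0.90 and -0.78. As the probe was kept through WT alone, the size of this difference is uncertain. The higher one was the gelatinase Mmp9, which was well above background in 2 of 6 WT and 6 of 6 Paraxis-/- measurements. It was kept through Paraxis-/- alone, so the size of its difference is uncertain. Of 11 macrophage and neutrophil markers 5 were measured, with summed ratios of 0.62, 0.30 and -0.15 and with Adgre1, Elane, Itgam and S100a8 not well above background anywhere; their part in the Mmp9 ratio was not tested. Among 6 tested ADAMTS-like genes, Adamtsl3 alone had an unadjusted p under 0.05, with -0.17 (SE 0.07, limma), against 5.06% of all genes at that p.

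Enzymes that activate these proteases, and the plasmin system that acts beside them, were examined too. Of 9 proprotein convertases, some of which remove the inhibitory propeptide of MMPs and ADAMs, Furin had a ratio of 0.25 (SE 0.07) and Mbtps1 0.28 (SE 0.10), both at an unadjusted p under 0.05 and neither past the adjusted threshold (limma). All 9 were tested, and 2.34% of all genes were higher at that p. Of the plasminogen system list 14 genes were tested, with a median ratio of 0.09. At an unadjusted p under 0.05 (limma) 2 were higher and 0 lower, against 2.34% and 2.73% of all genes. Among the higher was the surface serine protease Hpn with 0.39 (SE 0.08, adjusted p = 0.599, limma). Its pools did not overlap between the genotypes, against 5.96% of all genes in either direction. Plg, Plat, Plau and Plaur had 0.20, -0.08, -0.04 and 0.02, with overlapping pools. Of 12 tested genes in a mixed list of clearance receptors, other inhibitors and related genes, none had an unadjusted p under 0.05 (limma).

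Of these further lists, matrix proteins that serve as substrates had the largest number of ratios below 0. All 24 were tested and 18 had a mean below 0, against 48.4% of all genes. None passed the adjusted threshold, and 4 were lower and 1 higher at an unadjusted p under 0.05 (limma), against 2.73% and 2.34% of all genes. The lower ones were the microfibril protein Fbn2 with -0.39 (SE 0.08), the basement membrane collagens Col4a1 with -0.44 (SE 0.11) and Col4a2 with -0.35 (SE 0.12), and the basement membrane proteoglycan Hspg2 with -0.29 (SE 0.09). The higher one was the proteoglycan Vcan with 0.24 (SE 0.09); Vcan and Col4a2 were named after their values were seen. The list's median was -0.05, and the medians of the single pairs were -0.37, 0.00 and 0.04 from A to C. The low values of the list as a whole were thus those of pair A, whereas Fbn2, Col4a1, Col4a2 and Hspg2 had negative ratios in all 3 pairs.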

How the data were processed

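RNA of 3 pools per genotype was compared on 6 two-colour Agilent arrays; per the labels, 250 ng of RNA with an integrity number of at least 7.9 was labelled with Cy3 or Cy5. The deposited scanner files give spot intensity and a log10 ratio of Cy5 over Cy3 for each spot; per the file headers, Feature Extraction version 10.7.3.1 was used for slide 1 (pair A) and 10.5.1.1 for slide 2 (pairs B and C), while the submitters' processing notes name 8.5.1.1. The matrix of log10 ratios deposited for the series matched these within 5e-11 and served as an alternative. All log2 values were computed from the deposited median intensity of each spot, because the slide 2 files carry no means.

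Intensities were corrected with normexp (offset 50) and normalized by loess in limma 3.58.1 (R 4.3.3, data.table version 1.17.8). The 1639 control spots had no weight, and 438 to 620 outlier spots per array were left out. Slide 1 had 79 to 486 saturated spots per channel and slide 2 had 0. For pool levels, Aquantile normalization followed loess. Ratios were turned to Paraxis-/- over WT through the dyes in the labels and averaged over the dye swap, which pairs the same 2 RNA pools, so n is 3 pairs. For 2 arrays the title and the description name different pools; the title was followed.

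Probes well above background in at least 4 of 6 measurements of a genotype were kept (28639 of 41174), and the brightest of these stood for its gene. The pair ratios of 19349 genes (73 with fewer than 3 pairs) went into lmFit and eBayes for a two-sided test of a mean of 0, and p-values were adjusted by Benjamini-Hochberg over all genes (threshold 0.05). The fit was tested on simulated data. Names came from the slide 1 files, updated through a RefSeq gene listing (26690 probes by accession, 5189 by symbol, and 8343 kept the file's name). The number of arrays limits the precision. The labels call the pools biological replicates.

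The members, gene lists and marker lists were chosen with earlier results of these data known. By rule, values per pair were given for Fap, Dpp4, the Timps, Reck and members with an unadjusted p under 0.05 or 3 pair ratios of 1 sign and a mean of at least 0.3, and other members by class, with those of the highest and lowest mean ratio or WT level as examples. Adamts12, Adam10 and the choice of printed probes were added after values were seen, as was the sum of paraxial mesoderm markers without Tcf15. A planned search for protein motifs was not analysed here, and 1 gene of the further lists is not reported here.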

Additional observations from a re-analysis of the deposited data

How the results depend on the processing

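No member passed the adjusted threshold of 0.05 under 13 of 16 tested alternatives, which included leaving out each pair (0 each time). Slide 2 alone is the same fit as without pair A, and the deposited matrix gave the values of the scanner's processed signals, so these count double among the 16. With the 6 arrays fitted singly and the pair as a replicate block 2 passed, Fap and Mmp17, and 2 also passed with no replicate block, while with the slide as a fixed block 1 passed, Fap; over all genes 0.341%, 0.47% and 0.394% passed in these fits. The first 2 of these fits take dye-swapped arrays of the same pools as separate measurements, and the slide fit weighs pair A as much as pairs B and C together. The pairing comes from the arrays, which hold both pools of a pair. Fap had an unadjusted p under 0.05 (limma) in 16 of 16 tested alternatives, with ratios from -4.02 to -1.37, and Mmp17 in 16 of 16, from 0.28 to 0.47; Timp3 had it in 10 and Adam9 in 8. The median of the members was -0.038 on slide 1 alone and lay between -0.012 and 0.012 when each pair was left out. Under a tested alternative 16 members took the other sign, each with an interval that included 0 in the main fit of all pairs. Where it reversed, on slide 2 alone, Adamts12 had 0.456 (SE 0.0903, unadjusted p = 0.00454, adjusted p = 0.545, limma), away from 0. On slide 1 alone, which has no test, Adamts2 (-0.040) and Adamts9 (-0.029) took the other sign too. On slide 2 alone the ratios became -0.0154 for Mmp14, -0.0287 for Adam10, 0.0423 for Adam11, 0.00523 for Adam19, -0.0173 for Adamts4, 0.456 for Adamts12, 0.0165 for Timp1, 0.00134 for Timp2 and -0.103 for Timp4. Mmp23 became 0.00127 with the scanner's processed signals and with the deposited matrix. With median centring Adam11 became 0.00965, Adam12 -0.0438, Adamts7 0.00538 and Timp2 0.0271. Scaling between arrays gave Adam11 0.0104, no filter gave Adam12 -0.0436, and the slide block gave Adam12 -0.0172 and Reck -0.0623. The mean of all measured probes gave Mmp14 -0.0508, Adam15 -0.0217 and Adamts7 0.0270. Leaving out each pair gave ranges that span 0: Mmp14 -0.0154 to 0.190, Mmp15 -0.148 to 0.0279, Adam8 -0.00384 to 0.0618, Adam10 -0.0287 to 0.0728, Adam11 -0.120 to 0.0652, Adam12 -0.0297 to 0.0832, Adam15 -0.0562 to 0.0989, Adam19 -0.211 to 0.0343, Adamts4 -0.0241 to 0.0674, Adamts7 -0.0362 to 1.24e-05, Adamts12 -0.525 to 0.456, Timp1 -0.216 to 0.0165, Timp2 -0.110 to 0.00134, Timp4 -0.103 to 0.380 and Reck -0.122 to 0.235. The causes were not tested. Dim probes limit what can be seen: for 8 members signal over background gave no usable ratio, and the Fap ratio against a dim Paraxis-/- signal depends on the background correction. Slide 1 holds 1 pair, so it gives values with no test there.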
